A study of Mus musculus with 16 samples.

Results

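The dextran sulfate sodium (DSS) response was measured in the colonic epithelium of mice that had secretory immunoglobulin A (SIgA) from both sources, passive and active. Passive SIgA is taken in with the dam's milk, and active SIgA is made by the mouse's own transport of IgA across its gut lining. The comparison used 4 of the 16 microarrays of the study: 2 from DSS-treated mice and 2 from untreated mice, with the spread estimated from all 16. It was restricted to the 9987 of 19938 genes whose log2 intensity averaged 7 or more over the 16 arrays, a limit that used no contrast between groups. A gene low in untreated arrays could still pass it through its DSS arrays. Strip2 and Acot10 lay just inside that limit, with means of 7.0004 and 7.0006, and Map3k10 and Dok2 just outside it, with 6.9997 and 6.9992.

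The DSS group and its untreated group were C57BL/6 mice aged 70 days, Pigr+/- offspring of Pigr+/- dams, and each array held RNA pooled from 3 mice. The DSS mice had 2% DSS for 8 days before collection, and the untreated mice had none. The other 3 SIgA groups, each with 2 DSS and 2 untreated arrays of the same age and strain, were passive only (Pigr-/- offspring of Pigr+/- dams), active only (Pigr+/- offspring of Pigr-/- dams) and neither (Pigr-/- offspring of Pigr-/- dams). The 2 arrays of a group came from separate pools, so that p-values measure the spread between pools, and mouse-to-mouse variation within a pool was not seen. Mice carrying a functional gene held 1 copy of it, and no Pigr+/+ group was analysed here.

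Pigr encodes the polymeric immunoglobulin receptor, which carries dimeric IgA from the tissue through epithelial cells and releases it into the lumen as SIgA. DSS is a sulfated polysaccharide that injures the colonic epithelium and brings luminal bacteria into contact with it, and it is widely used as a model of colitis. Injured colonic epithelium is known to make bactericidal lectins, reactive oxygen and nitrogen species and chemokines, and stimulated epithelial cells can also display antigen on MHC class II molecules.

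Promoters are shown for 4 genes of the responses described below that hold a match to 1 of 2 motifs, and they were picked for that match. Of the 24 genes with the highest and lowest changes named below, 18 had a promoter in the table, of which 2 (Cxcl2 and Reg3g) held the NF-kB consensus and 0 the Y box. Of the 5 MHC class II genes that rose, 3 had a promoter in the table, and 2 of them (H2-Aa and H2-Eb1) held the Y box, while H2-DMa held neither motif. Each is the 250 bases upstream of the RefSeq start on GRCm38.p6, read 5′ to 3′ on the gene's own strand. Capitals mark a match to the NF-kB consensus or to the Y box (CTGATTGG), searched on both strands. H2-Aa (chr17:34287824-34288073, minus strand) encodes the class II alpha chain of I-A, and its capitals are the NF-kB consensus 131 to 121 bases before the start and the Y box 51 to 44 bases before it. H2-Eb1 (chr17:34305617-34305866, plus strand) encodes the class II beta chain of I-E, with a Y box 62 to 55 bases before the start. Cxcl2 (chr5:90903649-90903898, plus strand) encodes a neutrophil-attracting chemokine, with the NF-kB consensus 97 to 87 bases before the start. Reg3g (chr6:78468875-78469124, minus strand) encodes a lectin that kills Gram-positive bacteria, with the NF-kB consensus 123 to 114 bases before the start.
H2-Aa: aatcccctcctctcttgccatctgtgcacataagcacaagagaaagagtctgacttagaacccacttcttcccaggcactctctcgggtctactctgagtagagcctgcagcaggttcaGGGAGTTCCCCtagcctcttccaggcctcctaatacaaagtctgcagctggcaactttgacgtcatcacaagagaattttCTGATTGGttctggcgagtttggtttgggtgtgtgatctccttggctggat
H2-Eb1: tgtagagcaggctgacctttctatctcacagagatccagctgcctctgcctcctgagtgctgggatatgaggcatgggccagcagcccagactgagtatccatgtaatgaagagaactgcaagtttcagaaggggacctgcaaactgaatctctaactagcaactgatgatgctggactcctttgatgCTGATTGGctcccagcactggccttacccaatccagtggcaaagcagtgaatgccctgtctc
Cxcl2: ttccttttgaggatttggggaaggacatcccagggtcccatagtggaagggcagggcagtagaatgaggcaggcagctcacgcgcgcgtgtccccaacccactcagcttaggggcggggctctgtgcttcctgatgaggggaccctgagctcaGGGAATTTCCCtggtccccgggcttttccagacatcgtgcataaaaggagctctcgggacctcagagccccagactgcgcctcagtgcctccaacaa
Reg3g: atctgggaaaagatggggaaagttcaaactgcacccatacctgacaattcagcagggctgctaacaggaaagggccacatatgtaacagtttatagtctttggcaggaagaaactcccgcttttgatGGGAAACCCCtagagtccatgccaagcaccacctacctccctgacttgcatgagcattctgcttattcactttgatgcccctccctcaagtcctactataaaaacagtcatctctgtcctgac
The NF-kB consensus lay in the promoters of 15.3% of the genes that rose with DSS (65 of 424 with a promoter in the table) and 9.4% of those that fell (14 of 149), against 10.5% of the 8039 genes with a mean of 7 or more and 8.23% of all 27025 genes in the table. The Y box lay in 5.9% of the rises (25 of 424) and 5.37% of the falls (8 of 149), against 5.98% and 4.43% in the same backgrounds. These matches describe letters in the window and are not measured binding sites.

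Pigr was lower in the Pigr-/- arrays but still strongly measured there, and the position of its probes relative to the deleted part was not known. Its level was 12.38 and 12.38 in the DSS arrays with both SIgA sources and 12.45 and 12.39 in the untreated arrays, and 11.34 to 12.46 over the other DSS arrays and 11.43 to 12.34 over the other untreated arrays. The Pigr-/- groups lay at the low end, with 11.34 and 11.39 (passive only, DSS) and 11.48 and 11.58 (neither, DSS). The DSS difference of Pigr with both sources was -0.04 ± 0.10 on the log2 scale (adjusted p = 0.879), so that no change of the receptor passed the test. The tissue label fitted its markers: Epcam, Cdh1, Krt8, Krt18, Krt19, Krt20, Vil1, Car1 and Hnf4a lay at or above the 98.5 percentile of all genes in each of the 4 arrays, and Cdx1 and Cdx2 between the 87.7 and 91.5 percentiles.

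The 2 untreated arrays with both SIgA sources differed from the rest of the series at low signal. Over 1288 genes for chemosensory receptors and keratin-associated proteins, all but 21 with a mean under 7, they averaged 5.25 and 5.41, and the averages lay between 4.45 and 4.87 in the other 14 arrays, the 2 DSS arrays included. With these untreated arrays as the baseline, the median DSS change was -0.40 for genes with a mean level between 3 and 4 and 0.12 for genes between 7 and 8. The same DSS arrays set against the other 3 untreated groups gave medians of -0.02 and -0.01 in those ranges. Counts of all genes, and the values of many genes named below, are therefore also given against the other 6 untreated arrays. No scale was corrected in the values printed unless stated.

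**Figure D1:**
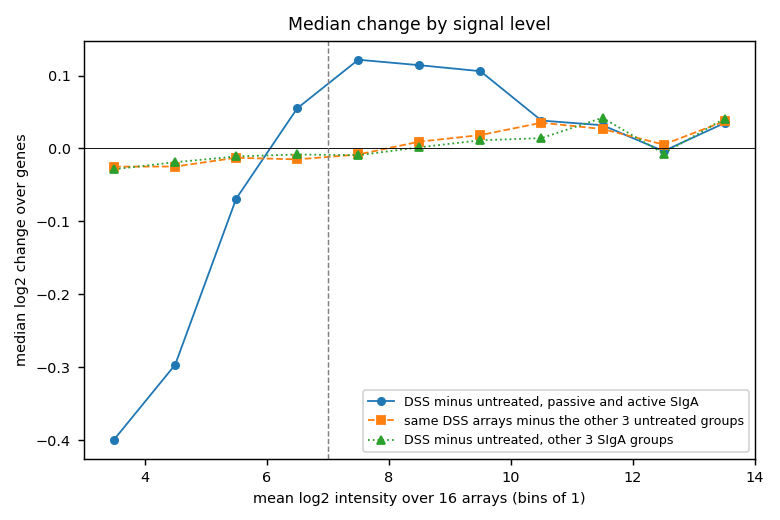
Median log2 DSS change (vertical axis) by mean log2 level over the 16 arrays (horizontal axis), for DSS minus untreated with passive and active SIgA, for the same DSS arrays minus the other 3 untreated groups, and for the DSS response averaged over the other 3 SIgA groups. The first line runs between -0.40 in weakly measured genes and 0.12 in genes with a mean between 7 and 8, while the others stay near 0.

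DSS changed 744 of the 9987 genes (7.45%) in mice with both SIgA sources, 546 of them higher (5.47%) and 198 lower (1.98%), at an adjusted p under 0.05 in limma. That adjustment covered all 19938 genes, and over the 9987 genes alone it gave 539 calls, 381 higher and 158 lower. Among the 744, the rises were the larger changes: 87 exceeded 1 on the log2 scale and 21 exceeded 2, against 24 and 1 of the falls. Without the level limit, 2011 of all 19938 genes changed (10.1%), 709 higher (3.56%) and 1302 lower (6.53%). Small changes were frequent in the genes past the limit, with 169 rises and 60 falls under 0.5. In all 744 genes the DSS and untreated arrays did not overlap, which was also true of 42.2% (higher) and 14.9% (lower) of all 9987 genes. A fall or rise in such epithelial isolates cannot separate fewer cells of a type from less RNA per cell.

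The balance of rises and falls depended on the baseline. The median gene rose by 0.10 on the log2 scale, and centring each array on its median gave 213 rises and 352 falls, quantile normalization 336 and 437. Against the other 3 untreated groups, a comparison that shares the DSS arrays, there were 687 calls (6.88%), 324 rises (3.24%) and 363 falls (3.63%), and 202 of the 546 rises (37%) and 135 of the 198 falls (68.2%) were called there the same way, while 28 and 8 had the opposite sign. Of the 87 rises and 24 falls over 1 log2, 74 and 20 were called against that baseline. A set of 139 rises (1.39%) and 135 falls (1.35%) was called the same way under all 4 settings. Single arrays weighed heavily too: the total was 208 without DSS replicate 2 (131 rises, 77 falls), 238 without untreated replicate 2 (172 and 66), 280 without untreated replicate 1 (185 and 95) and 1000 without DSS replicate 1 (809 and 191). Of the calls, 107 rises and 50 falls held with any 1 of these 4 arrays left out.

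Clca4b showed the highest rise, 3.95 ± 0.29 on the log2 scale or 15.4-fold, and encodes a member of a family that modulates epithelial chloride conductance. Its levels were 11.17 and 11.92 in the DSS arrays, against 7.68 and 7.52 in the untreated arrays (adjusted p = 6.37e-06). Ccl3, a chemokine that attracts monocytes and other leukocytes, followed with 10.62 and 10.09 in the DSS arrays, against 6.83 and 6.50 in the untreated arrays. The rest of the 12 highest rises were Srgn, Acod1, Ido1, Reg3g, Il1b, Cd74, Retnlb, Wfdc18, Cxcl2 and Reg3b, between 2.65 and 3.22 on the log2 scale. All 12 were picked among called genes whose DSS and untreated arrays did not overlap. With any 1 of the 4 arrays left out, the smallest rise among them was 2.37 on the log2 scale, for Cd74. With uncharacterised and microRNA genes left aside, the 12 lowest were Tppp3, Slc37a2, Cpm, Mptx1, Ces1g, Slc34a2, Nyx, Fxyd4, Sstr1, Nxpe2, Tppp and Ttr, between -1.89 and -1.20. The single lower value, -2.40, belonged to the uncharacterised 1700054O19Rik, named after its value was seen, which differed by -0.44 against the other untreated groups (adjusted p = 0.114). Mptx1 and Ces1g lost their calls without DSS replicate 2 and without untreated replicate 2, and Mptx1 also without untreated replicate 1, with adjusted p-values up to 0.179 and 0.111.

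**Figure D2:**
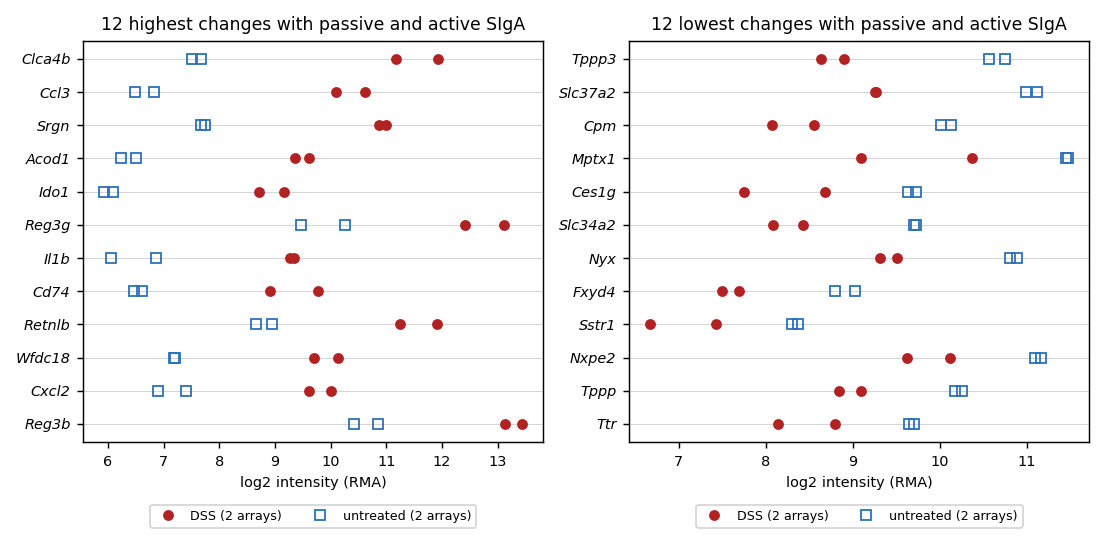
Log2 intensity (RMA, horizontal axes) of the 12 genes with the highest (left) and 12 with the lowest (right) DSS change with passive and active SIgA, uncharacterised and microRNA genes left aside. Filled circles are the 2 DSS arrays and open squares the 2 untreated arrays, whose lack of overlap was a condition for the genes shown.

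Markers of immune cells differed between the same DSS and untreated arrays. Of 21 neutrophil markers measured at any level, 11 rose and 0 fell, where 3.56% of all 19938 genes rose and 6.53% fell. Their median was 0.91, and 0.89 against the other untreated groups, and their mean level was 7.01 and 7.03 in the DSS arrays, against 6.03 and 6.04 in the untreated arrays. Of 25 monocyte and macrophage markers 13 rose and 0 fell, with a median of 0.48 (0.47 against the other untreated groups) and mean levels of 6.56 and 6.60 with DSS, against 6.05 and 6.04 untreated. Among the defining markers, Csf3r, the granulocyte growth factor receptor, was at 6.41 and 6.35 with DSS, against 5.52 and 5.22 untreated (log2 difference 1.01 ± 0.21, adjusted p = 0.00767). Csf1r, the macrophage growth factor receptor, was at 6.31 and 6.00 with DSS, against 5.51 and 5.44 untreated (0.68 ± 0.14, adjusted p = 0.00784). Ly6g (12.30 and 12.28 with DSS, against 11.96 and 11.76 untreated, adjusted p = 0.103) and Adgre1 (adjusted p = 0.677) did not pass, and the probe set of Ly6g lay at the 98.5 to 99.3 percentiles in the 4 arrays. Csf3r and Csf1r were weakly measured, at the 31.9 to 39 percentiles of all genes in the DSS arrays and the 12.3 to 17.3 percentiles in the untreated arrays.

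Other cell types gave fewer calls. At any level, 3.56% of all 19938 genes rose and 6.53% fell. None of 19 T cell markers passed, 1 of 16 markers of B cells and plasma cells rose and 3 fell, and 1 of 12 endothelial markers fell. Of 20 fibroblast and matrix markers 4 rose, with mean levels of 7.30 and 7.28 in the DSS arrays and 6.98 and 6.93 in the untreated arrays. They were Dcn (log2 difference 1.10 ± 0.27), Vim (1.04 ± 0.20), Fbln1 (0.72 ± 0.13) and Serping1 (0.89 ± 0.20), a collagen-binding proteoglycan, an intermediate filament, a matrix glycoprotein and a complement inhibitor. Their number was 1 without DSS replicate 2 and 2 without untreated replicate 1. The defining fibroblast genes Col1a1 (0.03) and Pdgfra (0.07) did not pass. Of 10 smooth muscle markers Acta2 (0.64) and Mylk (0.48) rose, although neither did after quantile normalization, at most 1 of them did with 1 array left out, and Myh11 did not pass (0.22). The 15 genes of colon epithelial identity gave no call in either direction, with a median of 0.04 and mean levels of 11.85 and 11.91 with DSS, against 11.88 and 11.91 untreated. Of the 9987 genes with a mean of 7 or more, 5.47% rose and 1.98% fell, so that few calls were due among 15.

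The gene lists that follow count members with a mean of 7 or more, to be read against the 5.47% of all 9987 genes that rose, the 1.98% that fell and their median of 0.10. Acod1, for example, lay under 7 in every untreated array and passed that limit through DSS arrays, which can raise the share of rises in a list. Members and lists were also chosen with earlier results of these data known, so that these shares are descriptions and not independent tests. Antimicrobial defence rose in 12 of its 20 members and fell in 1, with a median of 1.25 on the log2 scale. Of the 31 measured at any level 16 rose and 1 fell, where 3.56% and 6.53% of all 19938 genes did, with a median of 0.90. All 13 calls were also made against the other 3 untreated groups and after centring and quantile normalization, and 11 of the rises held with any 1 array left out. Reg3g, the lectin whose promoter is printed above, was at 12.41 and 13.11 in the DSS arrays, against 9.47 and 10.25 in the untreated arrays, a rise of 2.90 ± 0.36 (adjusted p = 0.000226). Reg3b, a related lectin active on Gram-negative bacteria, was at 13.13 and 13.44 with DSS, against 10.42 and 10.86 untreated. Retnlb, the goblet cell product RELM-beta that kills bacteria, reached 11.25 and 11.91 with DSS, against 8.65 and 8.94 untreated. Every DSS array exceeded both untreated arrays by more than 2 on the log2 scale in these 3 genes. Nos2, the inducible nitric oxide synthase, rose by 2.59 ± 0.15 (adjusted p = 1.7e-06). Its levels were 9.70 and 9.51 with DSS, against 7.11 and 6.92 untreated. Pla2g2a, a secreted phospholipase that attacks bacterial membranes, rose by 2.06 ± 0.16, and Wfdc18, a member of the whey acidic protein family, by 2.72 ± 0.21. Named after their values were seen, Duox2 and Duoxa2, which form the hydrogen peroxide-producing dual oxidase, rose by 1.63 ± 0.24 and 1.92 ± 0.24, and Saa3 and Slpi, an acute phase protein and a protease inhibitor, by 2.09 ± 0.38 and 1.27 ± 0.18. Wfdc2, another whey acidic protein, was the single member that fell (-0.94, adjusted p = 0.000813). Reg4 (-0.98, adjusted p = 0.166) and Saa1 (0.39, adjusted p = 0.319) did not pass. The immune cell marker levels given above differed between the same arrays, and their part in these rises was not tested.

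Chemokines and cytokines gave a few large rises among many members without a call. Of the myeloid-attracting group, 3 of 8 members rose (5.47% of all genes rose), with a median of 0.66. Ccl3 rose by 3.69 ± 0.28 and Cxcl2, whose promoter is printed above, by 2.66 ± 0.20, with Cxcl2 at 9.60 and 10.01 in the DSS arrays, against 6.89 and 7.41 in the untreated arrays. Both were also called against the other untreated groups (4.08 and 2.65). Ccl9 rose by 0.64 ± 0.16 and lost its call without DSS replicate 2 or untreated replicate 1. Cxcl1, the closest relative of Cxcl2 in the list, showed 0.69 ± 0.21 (adjusted p = 0.0516), just short of the threshold. Ccl6 differed by -0.44 ± 0.19 (adjusted p = 0.168).

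Of the 7 lymphocyte-attracting chemokines, 3 rose, with a median of 0.55. Ccl20, the ligand of Ccr6 made by epithelium over lymphoid follicles, was at 10.31 and 10.30 in the DSS arrays, against 8.43 and 8.16 in the untreated arrays. Cxcl9, an interferon gamma-induced ligand of Cxcr3, rose by 1.62 ± 0.22. Its relative Cxcl11 rose by 1.12 ± 0.24, but against the other untreated groups differed by 0.43 (adjusted p = 0.327) and lost its call without DSS replicate 2 and without either untreated array. Cxcl10 (0.55) and Ccl25 (0.24), a chemokine typical of the small intestine, did not pass. The 3 calls became 2 without DSS replicate 2 and without either untreated array.

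In the interleukin 1 family 2 of 5 members rose. Il1b, the secreted pro-inflammatory cytokine, was at 9.27 and 9.35 in the DSS arrays, against 6.87 and 6.06 in the untreated arrays, a rise of 2.84 ± 0.32 (adjusted p = 0.000116). Il18 rose by 0.78 ± 0.20 against its own untreated group, while against the other untreated groups it differed by 0.35 (adjusted p = 0.341). Il18 lost its call without DSS replicate 2 and without either untreated array. Casp1, the protease that matures both cytokines, differed by 0.64 ± 0.22 (adjusted p = 0.0864). Of 6 other cytokines and receptors, Tnf rose by 1.29 ± 0.22 and Tnfsf13b, the B cell survival factor BAFF, by 0.62 ± 0.17. The call of Tnfsf13b was lost when any of the 4 arrays was left out.

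Immunometabolic enzymes rose in 5 of 9 members, with a median of 0.58. Of the 11 measured at any level 5 rose, where 3.56% of all 19938 genes did, with a median of 0.50. Acod1, which makes itaconate and is typical of activated myeloid cells, was at 9.61 and 9.37 in the DSS arrays, against 6.24 and 6.51 in the untreated arrays. Ido1, the enzyme that breaks down tryptophan along the kynurenine route, was at 8.72 and 9.16 in the DSS arrays, against 5.93 and 6.09 in the untreated arrays, a rise of 2.93 ± 0.41. Both DSS arrays exceeded both untreated arrays by more than 2 on the log2 scale in these 2 genes. Ptgs2, the inducible cyclooxygenase, rose by 1.90 ± 0.31 and Ptges, prostaglandin E synthase, by 0.58 ± 0.13. Ptges did not pass against the other untreated groups (0.30, adjusted p = 0.14), nor without DSS replicate 2 or untreated replicate 2. Hdc, which makes histamine and is also on the neutrophil marker list, rose by 1.19 ± 0.15. Srgn, the proteoglycan of leukocyte granules and likewise a neutrophil list member, averaged 10.93 ± 0.10 in the 2 DSS arrays, against 7.71 ± 0.04 in the 2 untreated arrays (mean ± SD), a rise of 3.22 ± 0.24. Lilr4b, a receptor of myeloid cells, rose by 1.91 ± 0.32.

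Receptors for bacterial products and NF-kB regulators rose in 5 of 17 members, with a median of 0.30. The number was 4 without DSS replicate 1 and 2 without DSS replicate 2 or either untreated array. Cd14, the co-receptor for lipopolysaccharide and a monocyte list member, was at 8.83 and 9.08 in the DSS arrays, against 7.63 and 8.00 in the untreated arrays, a rise of 1.14 ± 0.16. Cd14 kept its call in each of these cases and against the other untreated groups (1.15). The remaining calls were smaller: Nfkbiz, a nuclear NF-kB cofactor (0.59 ± 0.13), Zc3h12a, an RNase that degrades cytokine transcripts (0.57 ± 0.14), Tlr3, a sensor of double-stranded RNA (0.63 ± 0.16), and Tlr2, a sensor of bacterial lipoproteins (0.51 ± 0.14). Against the other untreated groups Nfkbiz passed (0.43) and Zc3h12a, Tlr3 and Tlr2 did not, with adjusted p-values of 0.284, 0.163 and 0.102.

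MHC class II presentation rose in 5 of its 6 members, with a median of 1.77 on the log2 scale, the highest of the lists with more than 3 such members. Of the 9 measured at any level 5 rose, where 3.56% of all 19938 genes did, with a median of 1.27, or 0.75 against the other untreated groups. Cd74 and H2-DMa lay under 7 in both untreated arrays of this comparison. All 5 were called under all 4 settings and with any 1 of the 4 arrays left out. Cd74, the invariant chain that guards the peptide groove, was at 8.91 and 9.78 in the DSS arrays, against 6.47 and 6.61 in the untreated arrays, a rise of 2.80 ± 0.33 (adjusted p = 0.000154). The I-A chains H2-Ab1 and H2-Aa rose by 2.18 ± 0.22 and 2.11 ± 0.28, the I-E beta chain H2-Eb1 by 1.27 ± 0.13. H2-DMa, which exchanges peptides in the groove, was at 7.54 and 7.84 in the DSS arrays, against 6.21 and 6.32 in the untreated arrays, a rise of 1.43 ± 0.16. As in all called rises, both DSS arrays lay above both untreated arrays in each of the 5 genes. Against the other 3 untreated groups the rises were smaller, 1.92 for Cd74, 1.43 for H2-Ab1, 1.51 for H2-Aa, 1.10 for H2-Eb1 and 0.75 for H2-DMa. The sixth member, the protease Ctss, differed by 0.01 (adjusted p = 0.972). Macrophages and B cells also carry MHC class II, and the part of the marker levels given above in these rises was not tested.

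MHC class I loading and the immunoproteasome rose in 3 of 10 members, with a median of 0.34. Psmb8, an immunoproteasome subunit, rose by 1.04 ± 0.15 and kept its call under all 4 settings and with any 1 array left out. Psmb9, another subunit, rose by 0.51 ± 0.13, and Tap1, which carries peptides to class I molecules, by 0.79 ± 0.23 at an adjusted p of 0.0498. Tap1 lost its call with any 1 of the 4 arrays left out, and 1 member rose without DSS replicate 1 and without either untreated array. The interferon-stimulated genes as a group showed a median of 0.04, below that of all genes. Only Zbp1, a sensor of nucleic acids (1.40 ± 0.27), and Irf8, a myeloid transcription factor (0.68 ± 0.13), rose among its 14 members, and Irf8 lost its call without untreated replicate 1. Irf1 (0.46), Irf7 (-0.49) and Irf9 (0.32) did not pass.

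**Figure D3:**
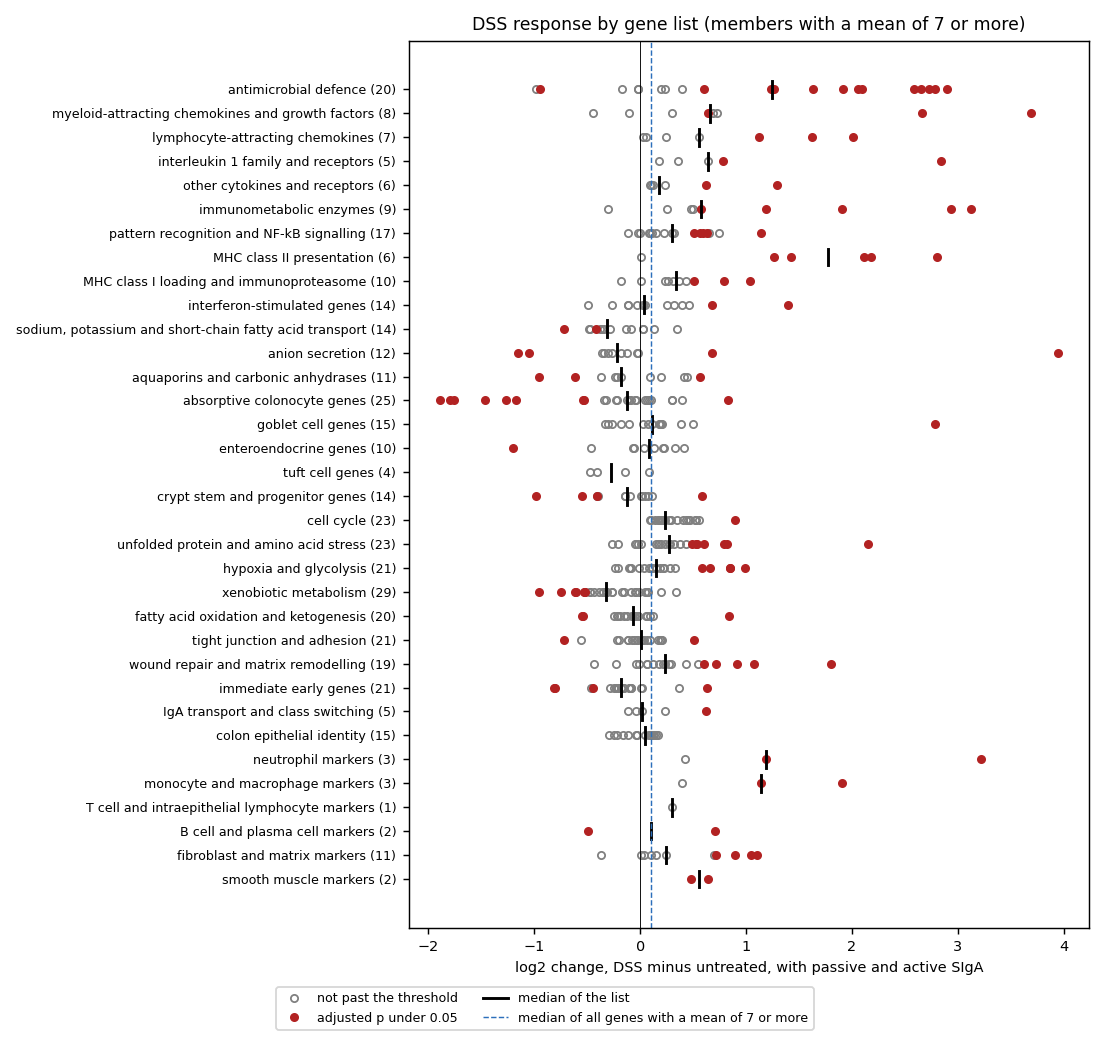
Log2 DSS change with passive and active SIgA (horizontal axis) of each member with a mean of 7 or more, by gene list, with the number of such members in brackets. Filled circles passed an adjusted p of 0.05, black bars are list medians and the dashed line is the median of all 9987 genes, 0.10. The MHC class II and antimicrobial lists lie mostly to its right.

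Of 25 absorptive colonocyte genes 8 fell and 1 rose, against 1.98% and 5.47% of all 9987 genes, and 16 were not called. The median of the list was -0.12. All 8 falls were called under all 4 settings, and 6 of them held with any 1 array left out. Slc37a2, a sugar phosphate exchanger, was at 9.26 and 9.27 in the DSS arrays, against 10.99 and 11.12 in the untreated arrays, a change of -1.80 ± 0.15 (adjusted p = 1.14e-05). Tppp3, a tubulin-binding protein, was at 8.64 and 8.90 in the DSS arrays, against 10.75 and 10.57 in the untreated arrays. Cpm, a membrane carboxypeptidase, was at 8.08 and 8.55 with DSS, against 10.13 and 10.01 untreated. As in all called falls, no DSS array reached an untreated array in these 3 genes. Nxpe2 changed by -1.26 ± 0.20, Naaladl1, a brush border peptidase, by -1.17 ± 0.19 and Slc34a2, a sodium-phosphate cotransporter, by -1.46 ± 0.27. Alpi, intestinal alkaline phosphatase and the single rise, named after its value was seen, rose by 0.83 (adjusted p = 0.0159) and was not called without DSS replicate 2 or either untreated array.

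Ion and water transport showed scattered calls. Of 14 sodium, potassium and short-chain fatty acid transport genes 2 fell and 0 rose, with a median of -0.31. They were Scnn1a, the alpha subunit of the epithelial sodium channel (-0.72 ± 0.16), and Slc9a2, a sodium-proton exchanger (-0.42 ± 0.11). Both were also lower against the other untreated groups (-0.85 and -0.59). Slc9a2 lost its call with any 1 array left out, and Scnn1a without DSS replicate 1 or untreated replicate 2. With 1 array left out Scnn1a ranged between -0.87 and -0.56 and Slc9a2 between -0.51 and -0.34. Sgk1 (-0.48), Kcnn4 (-0.38) and Slc16a1 (-0.28) did not pass.

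Of 12 anion secretion genes 2 rose and 2 fell. Ano1, a calcium-activated chloride channel, was at 9.42 and 9.04 in the DSS arrays, against 10.36 and 10.40 in the untreated arrays, a change of -1.15 ± 0.13. Best2, a bicarbonate channel of goblet cells, was at 8.29 and 7.97 in the DSS arrays, against 9.39 and 8.96 in the untreated arrays, a change of -1.04 ± 0.18. Both falls were called under all 4 settings and with any 1 array left out. Clca4a rose by 0.67 ± 0.16, less than its neighbour in the genome Clca4b, and did not pass against the other untreated groups (0.27, adjusted p = 0.363). Probe sets of such close paralogs can share signal. Among 11 aquaporins and carbonic anhydrases, Aqp8 (-0.96 ± 0.20) and Aqp1 (-0.61 ± 0.16) fell and Aqp4 (0.56 ± 0.12) rose, all water channels. All 3 were called against the other untreated groups, and none held with every array left out in turn: 0 were called without DSS replicate 2, and 1 without untreated replicate 1 or untreated replicate 2.

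Xenobiotic metabolism fell in 6 of 29 members and rose in 0, with a median of -0.32, where 1.98% of all genes fell and their median was 0.10. Cyp2s1 (-0.75 ± 0.13), Cyp4b1 (-0.95 ± 0.19) and Cyp2c55 (-0.53 ± 0.13), cytochrome P450 enzymes, and the conjugating enzymes Gstt1 (-0.60 ± 0.15) and Sult1a1 (-0.62 ± 0.16) were among them. The median against the other untreated groups was -0.35, with 7 falls. Cyp2s1 held with any 1 array left out, whereas 1 gene fell without DSS replicate 2 or untreated replicate 2 and 2 without untreated replicate 1. Ces1g, a carboxylesterase outside this list, was at 8.68 and 7.75 in the DSS arrays, against 9.64 and 9.73 in the untreated arrays. Of 20 genes of fatty acid oxidation and ketogenesis, 1 rose (Acadl, 0.84 ± 0.14) and 2 fell (Ppargc1a, -0.55 ± 0.15, and Fabp2, -0.54 ± 0.16). Both falls were lost with any 1 array left out, and the list's median was -0.07.

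Lineage markers of the crypt gave few calls. Retnlb was the single rise among 15 goblet cell genes, which had a median of 0.11, and Tff3 (0.39), Clca1 (-0.31), Sytl2 (0.50) and Ern2 (-0.33) did not pass. Of 10 enteroendocrine genes Ttr, a thyroxine carrier made by these cells, was the single fall, at 8.79 and 8.15 in the DSS arrays, against 9.70 and 9.64 in the untreated arrays, and Gcg (0.42), Chgb (0.33), Insm1 (0.22) and Pcsk1 (-0.47) did not pass. Ttr kept its call against the other untreated groups (-1.29) and with any 1 array left out. None of 4 tuft cell genes passed, with a median of -0.27. Sstr1, a somatostatin receptor outside these lists, was at 7.43 and 6.67 in the DSS arrays, against 8.30 and 8.37 in the untreated arrays, a change of -1.28 ± 0.19.

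Crypt stem and progenitor genes fell in 3 of 14 members and rose in 1. Lgr5, a Wnt pathway receptor that marks crypt base stem cells, was at 7.02 and 6.63 in the DSS arrays, against 7.77 and 7.85 untreated. Its change was -0.99 ± 0.17 (adjusted p = 0.00285), and -1.35 against the other untreated groups. Lgr5 held with any 1 array left out. Ephb3, a guidance receptor of the crypt base (-0.54 ± 0.14), and Lrig1, an inhibitor of growth factor receptors (-0.41 ± 0.10), fell by smaller amounts, and Prom1 rose (0.59 ± 0.13). With DSS replicate 2 or either untreated array left out, 1 of the falls remained in the count, and Prom1 did not pass against the other untreated groups (0.24, adjusted p = 0.336). All 23 cell cycle genes had a positive difference, with a median of 0.24, but Ccnd1, cyclin D1, was the single one to pass (0.89 ± 0.12, adjusted p = 0.000347). Rrm2 (0.52), Birc5 (0.56), Bub1 (0.53) and Cdk1 (0.47) did not.

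Stress and repair genes rose in part. Of 23 genes of the unfolded protein and amino acid stress responses 7 rose and 0 fell, with a median of 0.27. Slc7a11, the cystine importer, was at 8.44 and 8.57 in the DSS arrays, against 6.24 and 6.48 in the untreated arrays, a rise of 2.15 ± 0.30 (adjusted p = 0.000615). It alone was called under all 4 settings and with any 1 array left out. The protein folding factors Dnajc3 (0.82 ± 0.15), Creld2 (0.79 ± 0.18), Pdia4 (0.53 ± 0.12) and Hsp90b1 (0.53 ± 0.13) rose less. The count was 1 without DSS replicate 2, 2 without either untreated array and 3 after centring. Of 21 hypoxia and glycolysis genes 5 rose, namely Ero1a, an oxidase of protein folding (0.85 ± 0.13), Egln3, an oxygen sensor (0.85 ± 0.17), Slc16a3, the lactate exporter (0.66 ± 0.12), Bnip3 (0.59 ± 0.16) and Pfkfb3 (0.99 ± 0.29). Of these 5, Ero1a and Slc16a3 were also called against the other untreated groups, and Egln3, Bnip3 and Pfkfb3 were not. Ero1a and Egln3 held with any 1 array left out, and the count was 3 without DSS replicate 2 or untreated replicate 1 and 2 without untreated replicate 2.

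Of 19 wound repair and matrix remodelling genes 5 rose and 0 fell, with a median of 0.24. Ptk6, an epithelial tyrosine kinase, was at 9.11 and 9.10 in the DSS arrays, against 7.07 and 7.53 in the untreated arrays, a rise of 1.80 ± 0.22. Vnn1, a pantetheinase, rose by 1.08 ± 0.13. Plat, tissue plasminogen activator (0.91 ± 0.20), Itga2 (0.60 ± 0.15) and Itgb6 (0.71 ± 0.19), integrin subunits, were called with all arrays, while Ptk6 and Vnn1 made up the 2 calls without DSS replicate 2 or either untreated array. Itgb6 did not pass against the other untreated groups (0.09, adjusted p = 0.912). Tight junction and adhesion genes had a median of 0.01, with Dsc2, a desmosomal cadherin, higher (0.51 ± 0.12) and Cldn4, a claudin, lower (-0.72 ± 0.21) among 21. Cldn4 lost its call with any 1 array left out and was not called against the other untreated groups. Dsc2 lost its call without DSS replicate 2 or either untreated array, and after centring (0.41). Of 21 immediate early genes 3 fell, Nr4a1 (-0.81 ± 0.15), Fosb (-0.80 ± 0.18) and Ier2 (-0.45 ± 0.10), and Ier3 rose (0.63 ± 0.14). The falls numbered 0 without DSS replicate 2 and 1 without either untreated array, and Ier2 did not pass against the other untreated groups (-0.20). Among 5 genes of IgA transport and class switching Tnfsf13b was the single call, and no member was called after centring.

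The remaining genes with the lowest changes belong to none of these lists. Fxyd4, a regulator of the sodium pump, was at 7.69 and 7.50 in the DSS arrays, against 9.02 and 8.80 in the untreated arrays, a change of -1.31 ± 0.16. Tppp, a relative of Tppp3, was at 8.84 and 9.10 in the DSS arrays, against 10.25 and 10.17 in the untreated arrays. Mptx1, a pentraxin of the intestinal mucosa, was at 10.37 and 9.09 in the DSS arrays, against 11.48 and 11.46 in the untreated arrays, where the 2 DSS arrays differed by more than 1 from each other. Nyx, a leucine-rich proteoglycan known from the retina, was at 9.51 and 9.32 in the DSS arrays, against 10.89 and 10.81 in the untreated arrays, a change of -1.44 ± 0.12. Against the other untreated groups Nyx differed by -0.12 (adjusted p = 0.69), so that its call rested on its own untreated arrays.

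The response was then set beside that of the other 3 SIgA groups, whose own DSS and untreated arrays are separate from these. Averaged over those groups, 1158 of the 9987 genes changed with DSS (11.6%), 531 higher (5.32%) and 627 lower (6.28%). Of the 546 rises with both SIgA sources 247 were also called there (45.2%, and 46.5% of the 531), and of the 198 falls 157 (79.3%, and 25% of the 627). A single rise and 0 falls were called in the opposite direction. The highest rises were high in both, as with Clca4b (3.95 with both sources, 3.59 over the others, and so on in that order), Ccl3 (3.69, 2.93), Reg3g (2.90, 2.83) and Nos2 (2.59, 2.17). So were falls such as Slc37a2 (-1.80, -1.69) and Tppp3 (-1.89, -1.59). The values with both sources exceeded the others for Ido1 (2.93, 1.40) and Cd74 (2.80, 1.45), but the test of that difference gave adjusted p-values of 0.115 and 0.0799.

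**Figure D4:**
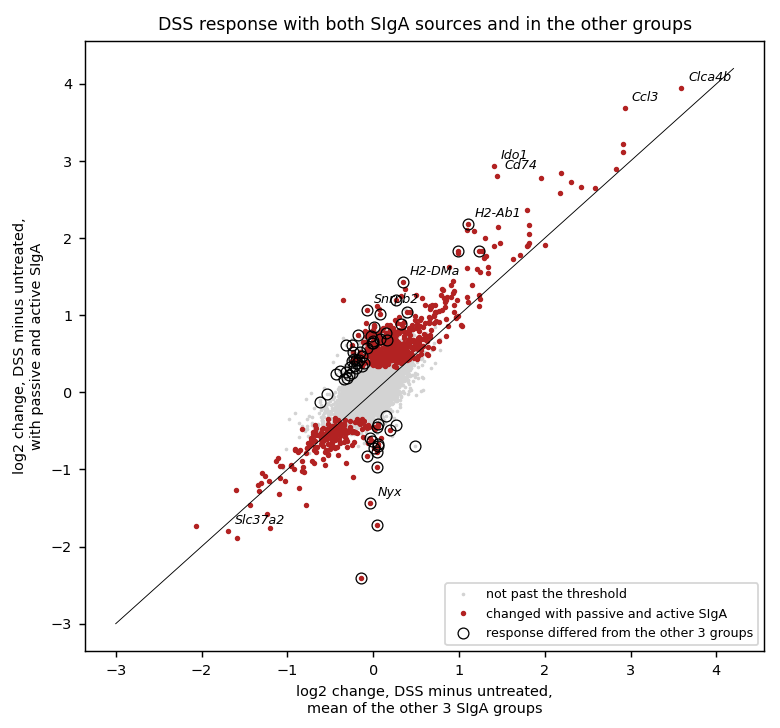
Log2 DSS change with passive and active SIgA (vertical axis) against the mean DSS change of the other 3 SIgA groups (horizontal axis) for 9987 genes. Dark filled points were changed with both SIgA sources, open circles mark the 60 genes whose response differed between them and the line marks equal changes. Clca4b and Ccl3 lie at the upper right, and Nyx lies low on the vertical axis near 0 on the horizontal axis.

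The difference of the response itself passed the test for 60 of the 9987 genes (0.601%), 43 with a higher (0.431%) and 17 with a lower value (0.17%) with both SIgA sources. The direction of these calls turned with the scale, with 7 higher and 34 lower after centring and 20 and 31 after quantile normalization. The difference is made up of a DSS part and an untreated part, which use the same arrays, and in 58 of the 60 genes the untreated part was the larger in size. The 2 DSS arrays with both sources, set against the other 6 DSS arrays, gave 0 calls in limma, and 267 genes (2.67%) had an unadjusted p under 0.05, while limma with a trend gave 1 call. The smallest p-values there belonged to Pigr (0.60 ± 0.09, adjusted p = 0.186), Rnu3a (-0.84 ± 0.16, adjusted p = 0.399) and Ccl3 (1.14 ± 0.22, adjusted p = 0.403). The untreated arrays with both sources against the other 6 untreated arrays gave 716 calls (7.17%), 105 higher (1.05%) and 611 lower (6.12%), which became 255 and 155 after centring. The highest were Nyx (1.31 ± 0.10), Ctse (0.96 ± 0.16), Defb46 (0.83 ± 0.17) and Hspb1 (0.80 ± 0.21), and the lowest Rny1 (-1.49 ± 0.22), Paip1 (-1.31 ± 0.28), Irgm1 (-1.07 ± 0.27) and Snrpb2 (-1.01 ± 0.18).

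Genes of MHC class II stood among the 60. H2-DMa rose more with both sources than in the other groups, by 1.08 ± 0.18 on the log2 scale (adjusted p = 0.00459), and H2-Ab1 by 1.08 ± 0.25 (adjusted p = 0.0327). H2-DMa was at 7.54 and 7.84 with DSS and 6.21 and 6.32 untreated with both sources, while the other DSS arrays spanned 6.99 to 7.54 and the other untreated arrays 6.73 to 7.39. The DSS response of H2-DMa in the other groups was 0.28 in the passive-only group, 0.40 in the active-only group and 0.35 in the group with neither source. For H2-Ab1 it was 0.63 in the passive-only group, 1.56 in the active-only group and 1.12 in the group with neither source, and for Cd74 0.56 in the passive-only group, 2.02 in the active-only group and 1.76 in the group with neither source. In all 3 genes the highest untreated array was a passive-only one, with 8.44 and 8.82 for Cd74 against 6.47 and 6.61 in the untreated arrays with both sources. H2-DMa passed with any 1 of the 4 arrays left out (0.93 to 1.24), whereas H2-Ab1 did not pass without DSS replicate 2, untreated replicate 1 or untreated replicate 2, with adjusted p-values up to 0.226. With p-values adjusted over the 9987 genes alone, neither passed (adjusted p = 0.122 for H2-DMa and 0.258 for H2-Ab1), and 0 of the 43 higher calls remained.

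The remaining differences concerned genes with no shared list. Snrpb2, a spliceosome protein, differed by 1.14 ± 0.25, Nfyb, a subunit of the factor that binds CCAAT sequences such as the Y box, by 0.94 ± 0.22, Sec11c, a signal peptidase subunit, by 0.93 ± 0.23, and Ccdc90b by 0.93 ± 0.21. Snrpb2 was at 10.16 and 10.66 with DSS and 9.41 and 9.29 untreated, while the other untreated arrays spanned 9.71 to 11.02. On the low side Nyx differed by -1.40 ± 0.14, Sfi1 by -0.75 ± 0.13, Ankrd33b by -0.73 ± 0.14, Gpr31b by -0.72 ± 0.16, the ribosomal stalk gene Rplp2 by -0.70 ± 0.17 and the actin-binding Tagln2 by -0.67 ± 0.12. After centring Nfyb, Sec11c and Ccdc90b did not pass, with adjusted p-values between 0.064 and 0.074. Of these 12 genes, H2-DMa and Nyx held with any 1 of the 4 arrays left out. Of the other 10, 9 lost the call without DSS replicate 2, 8 without untreated replicate 2, 7 without untreated replicate 1 and 1 without DSS replicate 1. With p-values adjusted over the 9987 genes alone, 3 genes remained, all lower, and Nyx was the single one of these 12 (adjusted p = 0.000436), the other 11 reaching 0.122 to 0.258.

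**Figure D5:**
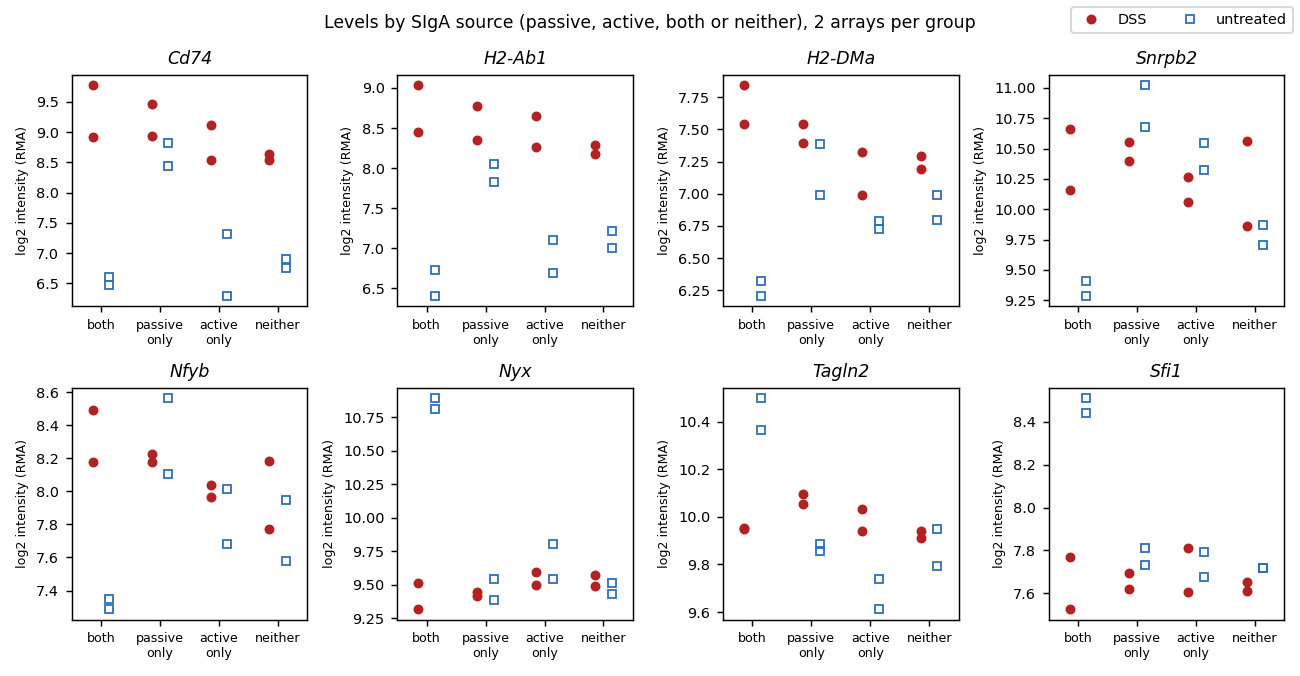
Log2 intensity (RMA, vertical axes) of 8 genes by SIgA source (horizontal axes), 2 arrays per group, with DSS arrays as filled circles left of the untreated arrays as open squares. The untreated arrays with both SIgA sources lie lowest for H2-DMa and Snrpb2 and highest for Nyx.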

How the data were processed

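RNA from colonic epithelium (integrity number 8.5 or above, per the labels' protocols) was read on 16 one-colour Affymetrix arrays, 2 for each of 8 groups. The deposited values are log2 intensities per probe set, summarised by the authors with RMA, per the submitters' processing notes (version not given in the sources used here), so background, quantile normalization and probe summary were already applied and raw scans were not used here. All 16 value columns belonged to a sample. Of 35557 probe sets 21789 carry 1 gene in the platform annotation, 1621 carry several and 12147 none. One-gene probe sets, 21698 of them found in RefSeq, were reduced to 19938 genes. Where several probe sets shared a gene (999 genes), only the brightest over the 16 arrays was kept.

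A mean per group was fitted over all 16 arrays with limma 3.58.1 in R 4.3.3 (lmFit, contrasts.fit, eBayes; 8 residual and 5.03 prior degrees of freedom). Tests were two-sided, p-values were adjusted by Benjamini-Hochberg over 19938 genes, and genes with a mean of 7 or more were reported at an adjusted p under 0.05. Log2 differences are printed ± SE, with 2 arrays per group. The median SE of the DSS response was 0.15, a precision set by the small number of arrays. On simulated data with 19938 genes, 91% of 200 genes changed by 1 and 40% of 200 changed by 0.5 on the log2 scale were recovered for the DSS response. The simulated noise was normal and independent between genes and arrays, with each gene's own spread. It held no shift of a whole array and no component shared between arrays, and recovery in their presence was not tested.

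Named genes were the 12 highest and 12 lowest DSS changes among the called genes with arrays that did not overlap, the 6 highest and 6 lowest differences from the other groups, the 4 highest and 4 lowest untreated differences, the 3 smallest p-values of the DSS arrays, up to 5 members of each of 35 gene lists by p, Pigr, and the genes nearest the level limit. Predicted and unnamed genes, microRNA, Snor and Scarna symbols and olfactory and vomeronasal receptors were left aside, while other small RNA genes (Rny1, Rnu3a) were kept. Members and lists were chosen with earlier results of these data known. Replicate numbers were not taken to pair the samples, since the labels tie them to no shared litter or day and the correlation of replicate differences exceeded 0.1 in 14 of 28 pairs of groups (range -0.30 to 0.67). A component shared by some groups is therefore possible. Neither a scan date nor a batch is given in the sources used here. Alternatives included centring, quantile normalization, another baseline, leaving out each array, other level limits, array weights and a replicate block.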

Additional observations from a re-analysis of the deposited data

Results flagged for a closer look

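The DSS response with passive and active SIgA differed from that of the other 3 SIgA groups, by a test of the difference itself, for 60 genes. In 58 of them the untreated part of the difference was larger than the DSS part. The DSS arrays with both sources, set against the other 3 DSS groups, gave 0 calls in limma. With p-values adjusted over the 9987 genes alone, 3 of the 60 remained, all lower. On the log2 scale the differences with the highest values were 1.14 for Snrpb2, 1.08 for H2-DMa, 1.08 for H2-Ab1, 0.94 for Nfyb, 0.93 for Sec11c and 0.93 for Ccdc90b. The lowest were -1.40 for Nyx, -0.75 for Sfi1, -0.73 for Ankrd33b, -0.72 for Gpr31b, -0.70 for Rplp2 and -0.67 for Tagln2. Probe sets with no gene named lie outside the comparisons above, and 239 of the 4142 of them with a mean of 7 or more changed with DSS, 66 higher and 173 lower. That is a smaller share than the 7.45% of the 9987 genes that changed. Here p-values were adjusted over all 35557 probe sets, a larger set than the 19938 genes used above.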

How the results depend on the processing

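The depth of these results is limited by 2 arrays per group, and counts near the threshold moved with most settings. With p-values adjusted over the 9987 genes alone, the DSS response gave 539 calls in place of 744. Against 744 calls of the DSS response, there were 2011 with no level limit, 378 with a fold minimum added, 1271 at a looser adjusted p, 438 with array weights and 162 when the 4 arrays alone were fitted, and 208 to 1000 with 1 array left out. Against 60 calls of the difference from the other SIgA groups, there were 91 at a lower and 29 at a higher level limit, 690 with none, 3 (0 higher, 3 lower) when p-values were adjusted over the 9987 genes alone, 135 at a looser adjusted p and 22 with array weights, and 9 to 170 with 1 array left out. Without active-only untreated replicate 1 the difference gave 114 calls and the untreated comparison 1166. Against 716 untreated calls, there were 2225 with no level limit, 328 adjusted over the 9987 genes alone, 136 with a fold minimum, 1414 at a looser adjusted p, 1178 with array weights, 410 after centring and 392 when the untreated arrays alone were fitted, and 62 to 1166 with 1 array left out. The DSS arrays with both sources against the other DSS arrays gave 0 calls, and 1 each with a variance trend, with the replicate block and when the DSS arrays alone were fitted. The replicate numbers were not taken to pair the samples (correlation 0.17 between the DSS and untreated arrays with both sources), and with the replicate number as a block the response gave 1016 calls, the difference 114 and the DSS comparison 1. The cause of these shifts was not tested. Of 2525 pairs of a named gene's result and a setting, 2131 kept their side of the threshold, 347 lost the call and 47 gained one. In 0 of them a called value turned direction, and 26 values that were not called changed sign.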
